A study of Mus musculus with 2 samples.

Results

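The genes described here are 10 drivers of the cell division cycle: the D-type cyclins Ccnd1, Ccnd2 and Ccnd3, the E-type cyclins Ccne1 and Ccne2, the A-type cyclin Ccna2, the B-type cyclins Ccnb1 and Ccnb2, the kinase Cdk1 and the phosphatase Cdc25a. They were chosen by name and are 10 of the 32285 genes listed. Each name matched 1 listed gene. The cells were E14, an established line of mouse embryonic stem cells of a 129/Ola background, kept in medium with serum and leukaemia inhibitory factor (LIF). The cells of the control library had received control siRNA (small interfering RNA), and those of the sonKD library siRNA against Son, which encodes a nuclear speckle protein that takes part in splicing. Both were harvested 24 hours after transfection, frozen, thawed, sorted for exclusion of 7-AAD and barcoded with 10x Genomics 3' v3 chemistry. Both groups were the same line and received the same Lipofectamine mix, so the control cells were transfected too.

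Each group held 1 library, so the differences below could not be checked against replicates, and what the siRNA did cannot be told apart from what else set the 2 libraries apart. No test was made and no p-value is given, because cells of 1 library are not replicates. Intervals are at 95% and cover counting error only. Barcodes counted as cells from 2500 UMIs (unique molecular identifiers, each marking 1 captured molecule) and 1000 genes up, provided that mitochondrial UMIs made up no more than 10%. This left 4978 control cells with 40902904 UMIs and 2731 sonKD cells with 32032551 UMIs. Median depth was 7737.5 UMIs per control cell and 11612 per sonKD cell. The mitochondrial limit left out 11.2% of control and 27.9% of sonKD barcodes past the other limits, and ribosomal protein genes took 20.3% and 23.7% of UMIs in cells. Their part in the differences below was not tested. Only 2 cell barcodes occurred in both libraries. All 10 stem cell markers (Pou5f1, Sox2, Nanog and others) were at 10 CPM or more in both libraries (CPM, counts per 1000000 UMIs in cells). None of the 24 markers of primitive endoderm, trophectoderm, mesoderm, neuroectoderm and fibroblasts reached 10 CPM, and Elf5, Neurog2, Col3a1 and Postn were at 0. The highest sum of a list was that of neuroectoderm, which came to 11.4 CPM for control and 9.55 for sonKD. Son itself was at 169 CPM in the control library against 106 CPM after knockdown, or 62.7% of control (60.2 to 65.4).

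Cyclins are unstable regulatory subunits that bind and activate cyclin-dependent kinases. D-type cyclins with CDK4 and CDK6 and E-type cyclins with CDK2 act on the retinoblastoma protein and start DNA replication, cyclin A acts in S phase and G2, and cyclin B with CDK1 drives mitosis. CDC25 phosphatases remove inhibitory phosphates from these kinases. Embryonic stem cells are known for a short G1 phase, for cyclin E activity that varies little over the cycle, and for low levels of D-type cyclins. Many genes of the E-type and CDC25A group are bound by E2F factors, while genes of mitosis often carry CCAAT boxes and the CHR element (cell cycle genes homology region) close to their start sites.

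All 10 genes had UMIs in both libraries, and the 8 other than Ccnd2 and Ccne2 averaged at least 10 CPM across the libraries. In sonKD, 7 of the 10 were at a lower CPM than in control and 3, Ccne1, Ccnb2 and Cdk1, at a higher one. The median log2 ratio of the 10 genes was -0.14, beside -0.12 for all 8063 genes that averaged 10 CPM or more. Counting a gene as lower or higher from a 1.2-fold difference, 17.6% of those 8063 genes were lower and 4.65% were higher. Of the 10, Ccne2 and Cdc25a were at least 1.2-fold lower and 0 were at least 1.2-fold higher. Among the 8 that reached 10 CPM, 1 was lower, which is a share near that of all genes. The 5th percentile of all genes was -0.40 and the 95th 0.25, and all 10 ratios lay inside that range. With TMM factors, which set the bulk of genes near equality, 7.55% of all genes were lower and 7.90% higher, Cdc25a no longer passed the fold, Ccne2 did, and Ccne1 and Cdk1 were past it on the higher side. Ratios are therefore read beside the median of all genes.

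**Figure D1:**
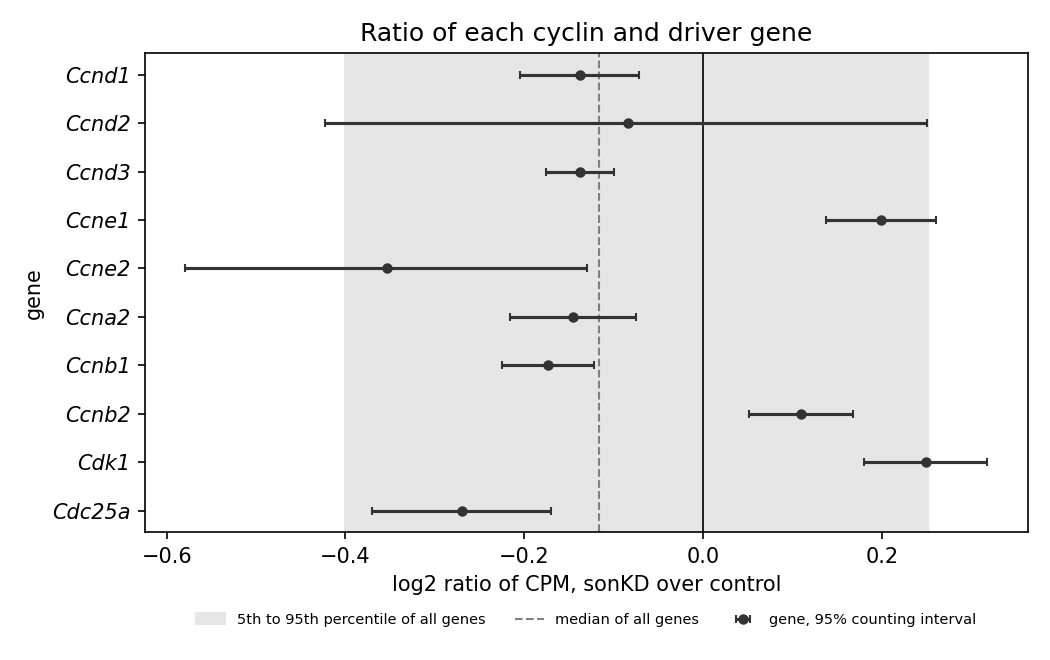
Log2 ratio of CPM in sonKD over control for each of the 10 genes (points) with 95% counting intervals (bars). The grey band spans the 5th to 95th percentile of all 8063 genes that averaged 10 CPM or more, and the dashed line is their median at -0.12. Ccne1, Ccnb2 and Cdk1 lie right of 0 and the other genes left of it.

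The D-type cyclins, which link growth signals to entry into the cycle, lay near the median of all genes. Ccnd1 had a level of 107 CPM (104 to 110) in the control library against 97.2 CPM (93.8 to 101) after knockdown, a log2 ratio of -0.14 (-0.20 to -0.07). Ccnd3 had the most UMIs of the 10 genes in both libraries, with 13422 in control and 9556 in sonKD. It had a level of 328 CPM (323 to 334) in the control library against 298 CPM (292 to 304) after knockdown, a log2 ratio of -0.14 (-0.18 to -0.10). For both genes the intervals of the 2 libraries did not overlap, but 44.4% and 44.5% of all genes had a still lower ratio. Ccnd2 was near the limit of detection, with 176 UMIs in control and 130 in sonKD. Its 4.30 CPM and 4.06 CPM gave a log2 ratio of -0.08 with an interval of -0.42 to 0.25 that included 0, and the sign changed under 3 of 8 alternatives.

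The 2 E-type cyclins, partners of CDK2 at the start of S phase, differed in the direction of their ratios. Ccne1 had a level of 111 CPM (108 to 114) in the control library against 127 CPM (123 to 131) after knockdown. Its log2 ratio of 0.20 (0.14 to 0.26) was above that of 93.3% of all genes. Ccne2 had a level of 10.6 CPM (9.64 to 11.7) in the control library against 8.30 CPM (7.34 to 9.36) after knockdown, a log2 ratio of -0.35 (-0.58 to -0.13). That ratio rests on 434 and 266 UMIs. The 2 intervals do not overlap, and both signs were kept under all 8 alternatives tried.

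Cdc25a, which activates CDK2 and CDK1, had a level of 50.3 CPM (48.1 to 52.5) in the control library against 41.7 CPM (39.5 to 44.0) after knockdown. The log2 ratio was -0.27 (-0.37 to -0.17), and 16.4% of all genes had a lower one. Ccna2, the cyclin of S phase and G2, had a level of 97.1 CPM (94.1 to 100) in the control library against 87.8 CPM (84.6 to 91.1) after knockdown. Its log2 ratio of -0.15 (-0.22 to -0.08) lay near the median of all genes.

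The mitotic genes lay on both sides of 0. Ccnb1 had a level of 179 CPM (175 to 183) in the control library against 159 CPM (154 to 163) after knockdown, a log2 ratio of -0.17 (-0.23 to -0.12). That ratio lay near the median of all genes at -0.12, and 35.5% of all genes had a lower one. With TMM factors the Ccnb1 ratio was -0.083. Ccnb2, a close relative of Ccnb1, had a level of 126 CPM (123 to 130) in the control library against 136 CPM (132 to 140) after knockdown. Its log2 ratio of 0.11 (0.05 to 0.17) was above that of 88.0% of all genes. Cdk1, the kinase that both cyclins bind, had a level of 86.8 CPM (84.0 to 89.7) in the control library against 103 CPM (99.7 to 107) after knockdown. Its log2 ratio of 0.25 (0.18 to 0.32) was the highest of the 10 genes and above that of 94.9% of all genes. In cells with 5000 to 15000 UMIs the Cdk1 ratio was 0.13 and that of Ccnb1 -0.27, and 26.4% of all genes were at least 1.2-fold lower there. Both values thus depended on which depths entered, while their signs did not.

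Where the genes lie bears on how far their counts can be trusted. In GENCODE M21 on GRCm38, Ccnd1 (chromosome 7, 144929931 to 144939925), Ccnd2 (chromosome 6, 127125162 to 127152193), Ccnd3 (chromosome 17, 47505051 to 47599691), Ccne2 (chromosome 4, 11191351 to 11204779) and Ccna2 (chromosome 3, 36564865 to 36572150) overlap a gene on the opposite strand. Whether the counting used strand is not given in the sources used here, and whether reads of such neighbours entered the counts was not tested. Ccne1 (chromosome 7, 38097984 to 38107534), Ccnb1 (chromosome 13, 100778650 to 100786570), Ccnb2 (chromosome 9, 70407692 to 70421547) and Cdk1 (chromosome 10, 69335146 to 69352938) overlap no other annotated gene. Cdc25a (chromosome 9, 109875579 to 109893895) holds Mir7089 on its own strand. For each of the 10 genes, 0% of the 31-base words in the last 500 bases of the longest coding transcript occurred in a transcript of another gene.

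To compare cells at equal depth, 4000 UMIs were drawn at random from each cell, which left out 268 shallower control cells and 109 sonKD cells and kept 4710 and 2622. A median of 3 of the 10 genes had a UMI per thinned cell in both libraries. No UMI of any of them was found in 2.10% of control and 4.04% of sonKD cells. Ccnd3 had a UMI in 69.1% (67.7 to 70.4) of control cells against 65.1% (63.2 to 66.9) of sonKD cells. Ccnb1 had a UMI in 48.8% (47.4 to 50.2) and 41.9% (40.02 to 43.8), a difference of -6.90 percentage points (-9.28 to -4.50). Another random draw gave -4.45 points for Ccnb1, thinning to 2500 UMIs gave -2.71, and a mitochondrial limit of 5% gave -3.50, so its size depended on these choices, and so did its rank among the 10 genes. With the other draw the Ccnd3 difference was larger, at -5.70 points, and at the 5% limit those of Cdk1 and Ccne1 were, at 5.32 and 5.28.

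Cdk1 had a UMI in 27.1% (25.8 to 28.4) of control cells against 31.2% (29.4 to 33.0) of sonKD cells, and Ccne1 in 33.3% (32.0 to 34.7) and 36.6% (34.7 to 38.5). Cdc25a was found in 18.7% (17.6 to 19.9) and 14.9% (13.6 to 16.3). Ccnd1 was found in 33.0% and 30.1%, Ccna2 in 30.96% and 27.8%, and Ccnb2 in 38.1% and 39.9%. For Ccnb2, Ccnd2 and Ccne2 the interval of the difference included 0. Ccnd2 was found in 1.78% and 1.68% of cells and Ccne2 in 4.18% and 3.47%. The shares thus had the direction of the CPM for each of the 10 genes.

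Without thinning, all shares were higher in the deeper sonKD library, also those of genes with a lower CPM. Ccnb1 was then found in 69.2% of control and 74.7% of sonKD cells, Cdk1 in 45.02% and 61.5%, and Ccnd3 in 85.5% and 88.4%. No cell type that lacks these genes was at hand. As a background, the free RNA of barcodes with 100 to 500 UMIs held Ccnb1 at 190.3 CPM in the control library against 162 CPM after knockdown, Cdk1 at 71.3 and 94.2 CPM, Ccne1 at 99.1 and 104 CPM, and Cdc25a at 22.3 and 17.6 CPM. Free RNA therefore held the genes at levels of the same order as the cells, and a single UMI in a cell does not show that the cell expressed the gene.

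**Figure D2:**
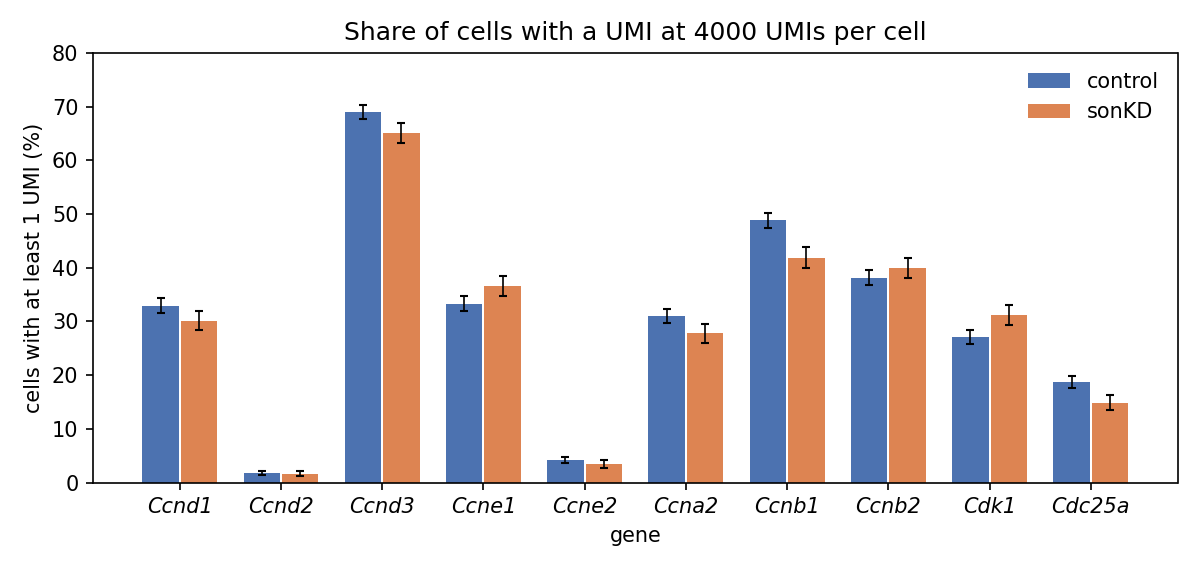
Percentage of cells with at least 1 UMI of each gene after thinning to 4000 UMIs per cell, in control (blue, 4710 cells) and sonKD (orange, 2622 cells). Bars carry exact binomial 95% intervals. Ccnb1 and Cdc25a were found in fewer sonKD cells and Cdk1 and Ccne1 in more, while Ccnd2 and Ccne2 stayed under 5% in both.

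Phase structure was read from an S score of 42 genes and a G2/M score of 52 genes, from which the genes described here had been removed. By the usual rule, a cell is called G1 when both scores are negative and otherwise takes the phase of the higher score. S calls held 52.4% (51.0 to 53.9) of the control against 52.9% (51.0 to 54.9) of the sonKD cells. G2/M calls held 45.03% (43.6 to 46.5) and 40.8% (38.9 to 42.7), a difference of -4.26 percentage points (-6.63 to -1.88). The G2/M shares lay closer together with another random draw, at 45.5% and 42.9%, and with thinning to 2500 UMIs, at 56.7% and 54.2%. With 6000 UMIs they were 45.7% and 41.4%, and with at most 5% mitochondrial UMIs 45.3% and 41.2%. The size of this difference thus depended on such choices. G1 calls held 2.55% (2.12 to 3.04) and 6.29% (5.39 to 7.29), a difference of 3.75 points (2.72 to 4.83). Calls are ranges of a score, and the scores of 18.5% of control and 20.4% of sonKD cells lay within 0.05 of each other. Cells called G1 were shallow before thinning, with a median of 5435.5 UMIs in control against 7640 for S, and 7099 in sonKD against 11543.5. They also held more mitochondrial UMIs, with a median of 5.28% in control and 6.05% in sonKD against 3.56% and 3.96% for S. With at most 5% mitochondrial UMIs, the G1 difference was 1.01 points (0.40 to 1.73). The calls also moved with depth: after thinning to 2500 UMIs, S calls held 39.9% of control and 41.1% of sonKD cells.

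The cells were then placed on a circle by the angle of both scores, each standardised over the cells of both libraries, and the circle was divided into 6 sectors of 60 degrees. The mean S score was 0.17 in control (SD over cells 0.14) and 0.14 in sonKD (0.14), and the mean G2/M score was 0.16 (0.16) and 0.13 (0.16). In order, the sectors were S high, both high, G2/M high, S low, both low and G2/M low. The sector with both scores low held 16.2% (15.2 to 17.3) of the control against 24.1% (22.5 to 25.8) of the sonKD cells, a difference of 7.86 points (5.91 to 9.84). Low here means below the mean over cells, and most cells of this sector were called S, 78.8% in control and 69.0% in sonKD. Only 14.5% and 23.4% of them were called G1. The S-high sector held 20.4% and 15.7%, and the sector with both high held 17.3% and 12.4%. Cells of the sector with both scores low had the lowest median depth and the highest median mitochondrial percentage of the 6 sectors in each library, at 7077 UMIs and 3.86% in control and 10601 UMIs and 4.45% in sonKD. The part of depth and RNA quality in this share was not tested.

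**Figure D3:**
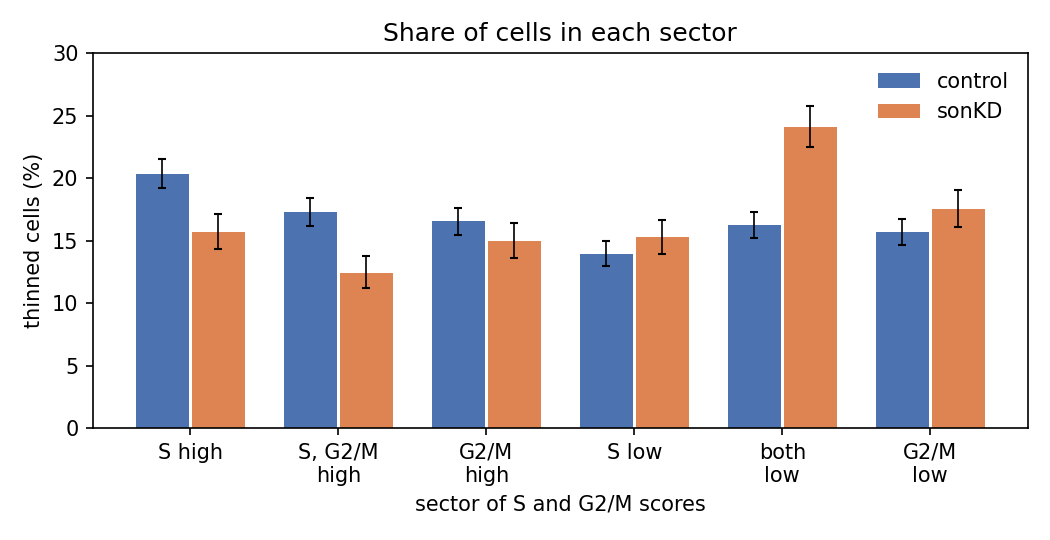
Percentage of thinned cells in each of the 6 sectors of the angle between S and G2/M score, in control (blue) and sonKD (orange), with exact binomial 95% intervals. The sector with both scores low held 16.2% of control and 24.1% of sonKD cells.

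Cdk1 and Ccnb1, the core of the mitotic kinase, were both highest in the G2/M-high sector. Cdk1 was at 0.53 UMIs per thinned control cell in the G2/M-high sector (0.48 to 0.58) and at 0.22 in the G2/M-low sector (0.19 to 0.25), a fold of 2.42. In sonKD it was at 0.58 in the G2/M-high sector (0.50 to 0.65) and lowest at 0.29 in the sector with both scores low (0.25 to 0.34), a fold of 1.98. In the G2/M-high sector Ccnb1 was at 0.95 in control (0.88 to 1.02) and 0.78 in sonKD (0.70 to 0.87), and it was lowest in the G2/M-low sector, at 0.51 and 0.45. The folds were 1.85 and 1.72. Cdk1 had its highest level in the same sector under all 8 settings of the sectors in both libraries, and Ccnb1 under 8 in control and 7 in sonKD. Here and below, the 8 settings include the main one, whose own peak is counted as a match.

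Ccne1 was highest in the S-high sector, at 0.59 UMIs per control cell (0.54 to 0.64) and 0.71 per sonKD cell (0.63 to 0.79), under all 8 settings. In control it was lowest in the G2/M-high sector at 0.32 (0.28 to 0.37), a fold of 1.81, and in sonKD in the sector with both scores low at 0.37 (0.32 to 0.42), a fold of 1.91. Ccne2 was highest in the S-high sector of control at 0.070 (0.054 to 0.089) and lowest in the G2/M-high sector at 0.023, while in sonKD its intervals overlapped between all 6 sectors. Ccna2 was highest where both scores were high, at 0.48 in control (0.43 to 0.53) and 0.43 in sonKD (0.36 to 0.50), and lowest where both were low, at 0.29 and 0.26. That peak held under 6 of 8 settings in control and 4 in sonKD.

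Ccnb2 had no stable peak. Its control levels lay between 0.47 and 0.55 in all 6 sectors, with overlapping intervals. The ratio of its highest to its lowest sector was 1.17 in control and 1.36 in sonKD, where the level was 0.61 (0.54 to 0.68) in the G2/M-low sector and 0.45 (0.40 to 0.50) with both scores low. Its highest sector was G2/M low under 4 of 8 settings in control and 2 in sonKD, and G2/M high under 2 in control and 3 in sonKD. Ccnd3 was highest in the G2/M-low sector, at 1.46 in control and 1.28 in sonKD, and lowest in the G2/M-high sector, at 1.15 and 1.09, and its peak held under 7 of 8 settings in control and 4 in sonKD. In sonKD these highest and lowest levels had overlapping intervals (1.18 to 1.39 and 0.99 to 1.19) and a fold of 1.18. Ccnd1 was highest where both scores were high, at 0.51 in control (0.46 to 0.56) and 0.44 in sonKD (0.38 to 0.52). That peak held under 6 of 8 settings in control and 7 in sonKD. Its lowest levels were 0.37 in control (0.32 to 0.41) and 0.35 in sonKD (0.30 to 0.41), where the intervals of highest and lowest overlapped. Cdc25a in sonKD was highest in the S-high sector, at 0.22 (0.17 to 0.27), under 6 of 8 settings, and lowest with both scores low, at 0.12 (0.098 to 0.15), a fold of 1.75. In control its fold was 1.41, its peak held under 3 of 8 settings, and it was at 0.22 with both scores low (0.19 to 0.26). Ccnd2 stayed at or under 0.031 in every sector, too low for an order to be read.

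**Figure D4:**
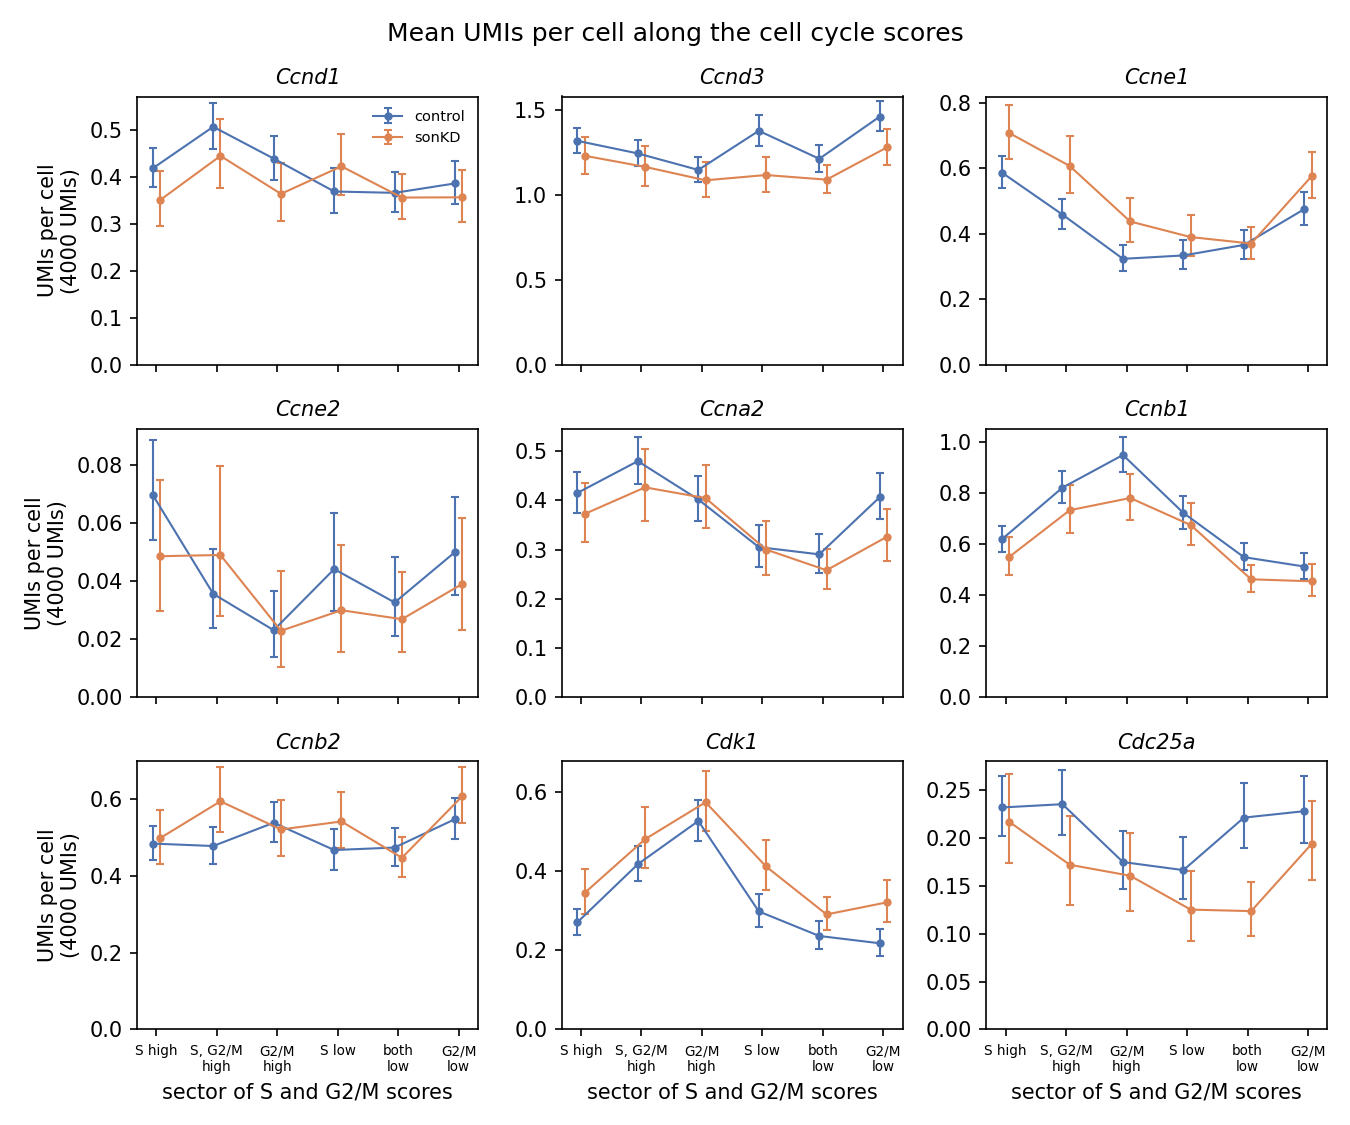
Mean UMIs per cell, after thinning to 4000 UMIs, in the 6 sectors for 9 of the 10 genes (Ccnd2 was too low to plot), in control (blue) and sonKD (orange), with exact Poisson 95% intervals. Cdk1 and Ccnb1 peak in the G2/M-high sector and Ccne1 in the S-high sector in both libraries, while the Ccnb2 levels of control lie between 0.47 and 0.55.

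Within sectors, the libraries could be compared among cells in the same range of angle. Cells of a sector were not matched for the distance of their scores from the centre. Cdk1 was higher in sonKD in all 6 sectors, with log2 ratios from 0.12 to 0.56, and in 3 of them the interval lay above 0. The highest ratio was in the G2/M-low sector (0.23 to 0.89) and the lowest in the G2/M-high sector (-0.12 to 0.36). Ccne1 was also higher in all 6 sectors, with ratios from 0.02 to 0.44 and 4 intervals above 0. With scores standardised within each library it was higher in 5 of 6, and without cells near the centre of the circle in 4 of 6. Ccnb1 was lower in all 6, from -0.28 to -0.10, with 2 intervals below 0. Cdc25a was lower in all 6, from -0.84 to -0.10, with 2 intervals below 0, and its lowest ratio was in the sector with both scores low (-1.25 to -0.44). These counts stand beside a general shift: over all cells, 6039 of the 8063 genes that averaged 10 CPM or more had a ratio below 0. The median of those 8063 genes was -0.12, and shares of all genes within sectors were not computed. Ccnb2 was higher in 4 of 6 sectors. Without cells near the centre, Cdk1 was still higher in 6 of 6, while Ccnb1 was lower in 4 and Cdc25a in 5. Whether ratios differ between sectors was not tested.

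With equal weight given to each sector, so that both libraries had the same makeup of sectors, the log2 ratio of thinned cells was 0.30 for Cdk1, 0.28 for Ccne1, 0.10 for Ccnb2, -0.19 for Ccnb1, -0.14 for Ccna2 and -0.34 for Cdc25a. Without that weighting these were 0.25, 0.21, 0.08, -0.24, -0.20 and -0.38. No ratio of the 10 genes changed sign, and the shift was at most 0.07. The largest shift was that of Ccne2, from -0.31 to -0.24. Within 1 SD of the centre of the circle, where both scores were near their means, lay 40.9% of control and 40.5% of sonKD cells. The part of cell cycle makeup in the ratios was not tested.

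Promoters are shown for Ccnb1, Cdk1 and Ccne1, whose highest sector was the same in both libraries under at least 7 of 8 settings, beside Ccnb2, which had no stable peak, and Cdc25a. The RefSeq promoter table on GRCm38.p6 held 6 of the 10 genes and covers 250 bases before to 50 after the start. Each line gives the 250 bases before the start, 5′ to 3′ on the gene's strand, with matches of the searched words on either strand in capitals. The words were TTTGAA or TTCGAA for the CHR, CCAAT for the CCAAT box, and TTTCCCGC, TTTGGCGC, TTTCGCGC or TTTGCCGC for an E2F site. No 2 matches overlapped.
Ccnb1, chr13:100786487-100786736, minus strand: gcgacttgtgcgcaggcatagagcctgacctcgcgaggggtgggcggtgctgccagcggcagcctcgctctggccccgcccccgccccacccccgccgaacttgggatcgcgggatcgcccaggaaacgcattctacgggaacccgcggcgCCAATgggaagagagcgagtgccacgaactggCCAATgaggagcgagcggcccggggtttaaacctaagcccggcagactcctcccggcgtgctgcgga
Ccnb2, chr9:70421555-70421804, minus strand: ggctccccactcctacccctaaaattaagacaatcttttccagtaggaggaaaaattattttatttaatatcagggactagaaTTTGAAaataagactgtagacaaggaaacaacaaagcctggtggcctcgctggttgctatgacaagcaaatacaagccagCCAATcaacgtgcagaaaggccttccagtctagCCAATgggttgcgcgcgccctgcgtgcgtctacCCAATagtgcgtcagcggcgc
Cdk1, chr10:69352913-69353162, minus strand: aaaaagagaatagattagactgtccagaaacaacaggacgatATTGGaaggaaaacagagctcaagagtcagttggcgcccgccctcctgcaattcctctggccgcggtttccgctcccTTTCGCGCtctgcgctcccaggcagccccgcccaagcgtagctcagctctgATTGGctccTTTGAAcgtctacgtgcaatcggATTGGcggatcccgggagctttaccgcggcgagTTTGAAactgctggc
Ccne1, chr7:38107491-38107740, minus strand: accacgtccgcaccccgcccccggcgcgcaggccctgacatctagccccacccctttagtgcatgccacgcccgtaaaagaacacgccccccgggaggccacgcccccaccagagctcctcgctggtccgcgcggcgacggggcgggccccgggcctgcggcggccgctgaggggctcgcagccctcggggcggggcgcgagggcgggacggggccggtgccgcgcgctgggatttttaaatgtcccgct
Cdc25a, chr9:109875329-109875578, plus strand: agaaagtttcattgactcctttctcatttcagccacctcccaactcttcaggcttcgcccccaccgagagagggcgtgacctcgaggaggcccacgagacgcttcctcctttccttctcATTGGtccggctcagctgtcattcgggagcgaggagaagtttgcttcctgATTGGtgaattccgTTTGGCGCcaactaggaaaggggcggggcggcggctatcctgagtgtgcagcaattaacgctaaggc

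Cdk1 held 2 CHR words, 3 CCAAT boxes and 1 E2F word in its window of 300 bases. Ccnb2 held 3 CCAAT boxes and 2 CHR words, one of them starting 5 bases after the start and so not shown. Ccnb1 held 2 CCAAT boxes and neither other motif. Cdc25a held 2 CCAAT boxes and 1 E2F word, and Ccne1 held none of the words. Of the 2 windows of Ccnd3, 1 held a CCAAT box. Over all 32851 promoters of that length, 19.2% held a CHR word, 37.4% a CCAAT box, 11.7% at least 2 CCAAT boxes and 2.26% an E2F word. At least 1 CHR word with at least 2 CCAAT boxes, as in Cdk1 and Ccnb2, occurred in 2.31%. These 2 genes shared the motifs and both had positive ratios, but so did Ccne1, which held none of the words. A link between motifs and ratios was not tested. Along the circle, Cdk1 was highest in the G2/M-high sector under 8 of 8 settings in both libraries, and Ccnb2 under 2 in control and 3 in sonKD. A match is a run of letters and not evidence of binding.

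Between the genes, cells showed little joint variation. Over the 45 pairs, Pearson's r of log counts across thinned cells lay between -0.045 and 0.086 in either library, and cells share the depth of thinning and the library. The highest values were 0.086 in control for Ccnb1 and Cdk1, which shared 14.5% of cells against a product of single shares of 13.2%, and 0.070 in sonKD for Ccna2 and Ccnb1. At such sparse counts these are no findings. Counts varied little more than counting alone gives: the variance over the mean in thinned cells was highest for Ccnd3 in control, at 1.22, and for Ccne1 in sonKD, at 1.23. Among 5039 other genes, the closest across cells to Cdk1 was Ube2c, which attaches ubiquitin for the anaphase-promoting complex, with r of 0.16 in control and 0.17 in sonKD, followed by Prc1 and Arl6ip1. Ube2c was also the closest to Ccnb1, with 0.16 in both. H2afz was the closest to Ccne1 (0.13 and 0.15) and to Ccnd3 (0.19 and 0.18). For Ccnd1, Ccnd2, Ccne2, Ccna2, Ccnb2 and Cdc25a, no gene reached 0.1 in both libraries.

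Of 77 further genes of the pathway, 68 had a mean of at least 10 CPM. Of these, 15 were at least 1.2-fold lower in sonKD, or 22.1% beside 17.6% of all genes, which is near. At least 1.2-fold higher was 1 gene, or 1.47% beside 4.65% of all genes. Their median log2 ratio was -0.18, beside -0.12 for all genes. The mitotic switch around CDK1 held the gene farthest above 0, Arpp19, an inhibitor of the phosphatase PP2A in mitosis, at 159 CPM in the control library against 212 CPM after knockdown (0.41, interval 0.36 to 0.46). It also held Plk1, the polo kinase that activates CDK1, at 91.4 and 68.4 CPM (-0.42, interval -0.49 to -0.34), and 2 of its 9 genes were lower.

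Of 13 genes that act in the ubiquitin-dependent control of cyclins, 3 were lower, or 23.1% beside 17.6% of all genes. Ambra1, an adaptor for the destruction of D-type cyclins, was at 66.4 CPM in the control library against 43.9 CPM after knockdown (-0.60, interval -0.69 to -0.50), and Fzr1, an activator of the anaphase-promoting complex, at 44.5 and 31.9 CPM (-0.48, interval -0.59 to -0.37). Of 13 RB and E2F genes, 2 were lower: E2f1, at 46.9 and 34.3 CPM (-0.45, interval -0.56 to -0.34), and Rbl2, which encodes the pocket protein p130, at 20.4 and 16.0 CPM (-0.34).

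The counts that follow stand beside 17.6% of all genes that were lower. Of 5 inhibitors of cyclin-dependent kinases at 10 CPM, 2 were lower, Cdkn1c at -0.31 and Cdkn1b at -0.28. Of 8 other kinases, 3 were lower, with Cdk5 at -0.37 and Cdk9 at -0.27 the farthest from 0. Of 11 other cyclins, 2 were lower, Ccnc at -0.30 and Ccnk at -0.27, both of them cyclins of transcription. Of 9 genes of the MuvB complex with its partners, which bind CHR elements, and the MYC genes, 1 was lower, Lin52 at -0.29, and Mybl2 was at -0.21. No gene of the roles other than the mitotic switch was at least 1.2-fold higher. With TMM factors 7.55% of all genes were lower, and the roles were not counted again with that scaling.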

How the data were processed

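UMI counts per gene and barcode were made by the authors with Cell Ranger 7.1.0 on mm10, per the submitters' processing notes, and deposited as raw counts with no cells selected. Whether counting used strand or included introns is not given in the sources used here. From these counts, sums over cells gave CPM with exact Poisson intervals, ratios without a pseudocount with exact conditional binomial intervals, and shares with Clopper-Pearson intervals. Bounds of a difference of shares combine those of both shares. Control held 71046373 UMIs and sonKD 60352438 over all barcodes. Cells were thinned without replacement to 4000 UMIs, scaled to 10000 and scored with scanpy 1.11.5 (Python 3.11.15, numpy 2.4.6, scipy 1.17.1). TMM factors came from edgeR 4.0.16. Scrublet called 0.0603% of control and 0.0366% of sonKD cells, which is too few to be a working call, so doublets were kept, and an alternative removed the highest scores at 0.8% per 1000 cells. The interval and ratio calculations were tested on simulated data.

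The genes and lists were chosen with earlier results of these data known. Named genes were the 10 genes, Son, the 2 pathway genes farthest from 0 in each role, and up to 3 genes per member with an r of at least 0.1 in both libraries. Alternatives changed scaling, filters on cells and genes, fold, pseudocount, thinning, doublets and sectors. Restricting depth to 5000 to 15000 UMIs and dropping cells within 1 SD of the centre of the circle were added after seeing the data, as were the alternatives for the share with both scores low.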

Additional observations from a re-analysis of the deposited data

Results flagged for a closer look

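Outside the cells, barcodes with 100 to 500 UMIs held Cdk1 at 71.3 CPM in the control library against 94.2 CPM after knockdown, a log2 ratio of 0.40 (0.30 to 0.51). In the same barcodes Ccnb2 was at 115 and 124 CPM, a log2 ratio of 0.11 (0.02 to 0.20). In barcodes left out for over 10% mitochondrial UMIs, Ccnb2 was at 91.1 CPM in the control library against 114 CPM after knockdown, a log2 ratio of 0.33 (0.07 to 0.59). These 3 values are listed because they come from barcodes that the comparison of cells did not use and their intervals lay above 0. Intervals below 0 were not flagged by that rule. Among these were Ccne2 at -0.71 (-1.18 to -0.24) and Ccnd1 at -0.40 (-0.51 to -0.28) in barcodes with 100 to 500 UMIs. Cdc25a was at -0.60 (-0.98 to -0.21) in those with over 10% mitochondrial UMIs.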

How the results depend on the processing

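Each group held 1 library, so no library could be left out. No paired analysis was possible because each group held 1 sample and no test was made. Over 49 results, 308 of 358 alternative values stayed within the limit set for them, and 50 moved by more. For ratios and differences the limit was the counting interval. For counts, shares of all genes and the fold of highest over lowest sector it was 1.5 times, and the median of all genes had a fixed limit. The sector folds made up 160 of the values, and 151 of these stayed within 1.5 times. Several of those folds were under 1.5 to begin with, so this limit was wide for them. No ratio or difference whose interval excluded 0 changed sign. Among those whose interval included 0, the Ccnd2 ratio and share difference changed sign, and the S-call difference was -0.64 with the highest Scrublet scores removed, -0.53 with another draw and -0.23 with the 10 genes kept in the scores. The median log2 ratio of the 10 genes was -0.048 with TMM factors and -0.065 without mitochondrial and ribosomal protein genes. The number of genes at least 1.2-fold lower was then 1 in either case, also 1 in cells with 5000 to 15000 UMIs, and 0 at a fold of 1.5. The difference in G1 calls was 1.28 points with thinning to 2500 UMIs, 2.06 with 6000 UMIs and 1.01 with at most 5% mitochondrial UMIs, where the difference in S calls was 3.15. The difference in the share with both scores low was 5.15 points at 2500 UMIs and 11.9 at 6000 UMIs. The number of genes with their highest level in the same sector in both libraries was 7, and 4 with the highest Scrublet scores removed, with another random draw, or without cells near the centre of the circle. The cause was not tested. Without mitochondrial and ribosomal protein genes, 8.89% of all genes were lower and 7.23% higher. Depth limits Ccnd2 and Ccne2 most, with at most 434 UMIs per library.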
